A study of Mus musculus with 4 samples.

Results

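10 genes of the Notch pathway were followed here in bulk RNA sequencing of marrow stromal cells from mouse femurs. They were taken by name from the table of raw counts: the ligand gene Jag1, the receptor genes Notch1, Notch2 and Notch3, the gene of the nuclear partner Rbpj, and the target genes Hes1, Hey1, Hey2, Heyl and Nrarp. All 10 had a row among the 17230 of the table, and all 10 passed the low-count filter that left 14330 genes for testing. Their RNA was compared between reticular cells labelled from 2 fetal sources, with 2 libraries in each group. Hey1, Hey2, Heyl and Notch3 were lower in the Hes1-derived cells, and none of the 10 was called higher.

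Notch receptors are surface proteins that are cut when a ligand such as Jag1 on a neighbouring cell pulls on them. The released intracellular part enters the nucleus, joins the DNA-binding protein Rbpj and switches on genes of the Hes and Hey families, which encode basic helix-loop-helix repressors, and Nrarp, a small ankyrin-repeat protein that in turn restrains the pathway. In the skeleton the pathway is known for holding mesenchymal progenitors back from becoming osteoblasts, and Notch3 and Heyl are also well known in the mural cells that wrap small vessels.

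The cells came from femurs at postnatal day 21, after the distal growth plates had been taken off. Mice of both groups carried a GFP allele of Cxcl12, the chemokine gene that marks CXCL12-abundant reticular (CAR) cells, and a Cre-dependent tdTomato reporter at R26R. They differed in the Cre driver: Cxcl12(GFP/+); Hes1(CreER/+); R26R(tdTomato/+) in the Hes1-derived group, replicates 1 and 3, and Cxcl12(GFP/+); Fgfr3-iCreER; R26R(tdTomato/+) in the Fgfr3-derived group, replicates 2 and 3. Tamoxifen at embryonic day 12.5 switched on tdTomato in cells in which the driver was active, and the series title names fetal perichondrium and chondrocytes as the sources compared. The labels describe GFP and tdTomato double-positive cells, while the extraction text names tdTomato alone. No label says whether a library was 1 animal or a pool, so p-values measure the spread between these libraries, which may be technical.

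A difference between the genotypes concerns a gene followed here. In the Hes1-derived mice 1 Hes1 allele carries the CreER, and in the Fgfr3-derived mice neither does. Whether that allele still makes Hes1 RNA is not given in the sources used here. For Hes1 itself the allele and the origin of the cells therefore cannot be told apart. Because the driver goes with the group in every library, driver genotype and origin cannot be told apart for the other genes either.

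The libraries held 22745128 and 23625327 counted reads in the Hes1-derived group and 26025607 and 26804832 in the Fgfr3-derived group. Levels are given as CPM, read counts per library total scaled by TMM factors, which assume that most genes do not differ. Differences are log2 fold changes of Hes1-derived minus Fgfr3-derived libraries with their standard error (SE), tested with the quasi-likelihood test of edgeR and adjusted by the Benjamini-Hochberg method over all 14330 genes. A gene is called where its adjusted p is below 0.05. In bulk samples, fewer cells of a type and less RNA per cell cannot be told apart.

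Promoter sequences from RefSeq (build GRCm38.p6), from 250 bases before to 50 bases after the start site, were on hand for 7 of the 10 genes. The 3 shown are the target that differed most, the receptor that differed most and the target whose level lay the other way. Capitals mark TGGGAA, the core that Rbpj binds, on either strand, and CACGTG, an E-box that Hes and Hey proteins can bind, which reads the same on both strands. The Hey2 window is chr10:30842734-30843033 on the minus strand, the Notch3 window chr17:32166841-32167140 on the minus strand and the Nrarp window chr2:25180508-25180807 on the plus strand.
Hey2: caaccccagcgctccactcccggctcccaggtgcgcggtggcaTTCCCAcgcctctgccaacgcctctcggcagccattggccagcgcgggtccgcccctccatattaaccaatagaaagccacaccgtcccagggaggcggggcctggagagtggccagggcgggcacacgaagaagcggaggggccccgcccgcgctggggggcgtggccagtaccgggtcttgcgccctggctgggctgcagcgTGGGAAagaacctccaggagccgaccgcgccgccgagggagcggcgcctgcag
Notch3: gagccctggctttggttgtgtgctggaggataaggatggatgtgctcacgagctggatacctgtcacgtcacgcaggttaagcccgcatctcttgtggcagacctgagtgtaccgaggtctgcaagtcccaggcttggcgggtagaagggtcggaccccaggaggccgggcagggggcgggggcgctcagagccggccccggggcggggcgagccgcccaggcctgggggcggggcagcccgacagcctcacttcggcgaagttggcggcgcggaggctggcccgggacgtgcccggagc
Nrarp: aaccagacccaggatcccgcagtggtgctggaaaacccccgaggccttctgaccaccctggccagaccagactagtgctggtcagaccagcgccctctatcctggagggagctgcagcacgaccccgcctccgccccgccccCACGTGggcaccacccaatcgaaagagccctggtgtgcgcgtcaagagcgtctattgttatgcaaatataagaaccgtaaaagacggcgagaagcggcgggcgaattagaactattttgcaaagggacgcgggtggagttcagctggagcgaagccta

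The Hey2 window held the core in both orientations, as TTCCCA from position -207 and as TGGGAA from position -3 counted from the start site. Both copies lie within the longer form GTGGGAA. The Notch3 window held neither TGGGAA nor CACGTG, and the Nrarp window held CACGTG from position -108 and no TGGGAA. The first transcribed bases of the Notch3 window were not found in any GENCODE M21 transcript of that gene, unlike those of Hey2 and Nrarp. The absence of matches for Notch3 therefore holds for the RefSeq start site only. Of 32851 mouse promoters of this length, 25.6% held TGGGAA on either strand, 6.38% held GTGGGAA and 7.15% held CACGTG. A match describes the letters only.

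Read together, the 10 genes leaned lower in the Hes1-derived libraries. Of the 10, 4 were called lower, which is 40.0% of them, while 6.56% of all tested genes were called lower. None of the 10 was called higher, where 5.24% of all tested genes were. At an unadjusted p under 0.05 the counts were 5 lower and 0 higher. The median log2 fold change of the 10 was -0.79, and that of all tested genes was -0.02. Both Hes1-derived libraries lay below both Fgfr3-derived libraries for 6 genes (Hes1, Hey1, Hey2, Heyl, Notch3 and Jag1) and above them for 2 (Notch1 and Nrarp). The same held, respectively, for 32.1% and 29.8% of all tested genes.

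**Figure D1:**
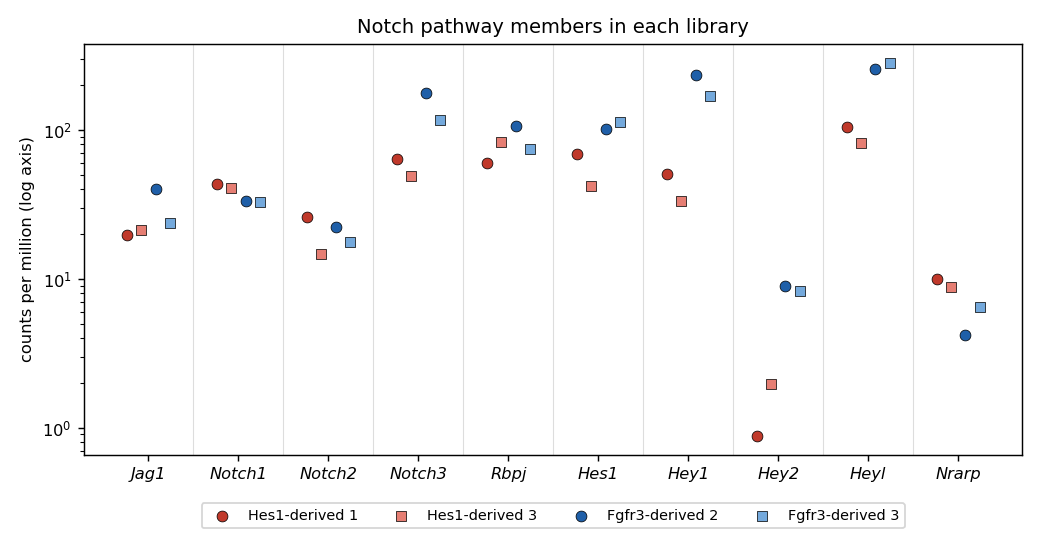
TMM-scaled CPM on a log axis for each of the 10 genes, with 1 point per library (circles and squares, 2 libraries per group). The red Hes1-derived points sit below the blue Fgfr3-derived points for Hey1, Hey2, Heyl, Notch3, Hes1 and Jag1, above them for Notch1 and Nrarp, and among them for Notch2 and Rbpj.

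Jag1 (chr2:137081456-137116644, GRCm38, minus strand) encodes a membrane-bound ligand of the receptors. Its level in replicates 1 and 3 of the Hes1-derived group was 19.6 and 21.2 CPM, and in replicates 2 and 3 of the Fgfr3-derived group 40.1 and 23.6 CPM. Values of later genes follow this order. The groups did not overlap, but the Fgfr3-derived libraries lay further apart from each other than replicate 3 of that group did from the Hes1-derived ones. The log2 fold change was -0.64 ± 0.31 (SE; 95% interval -1.36 to 0.08), with an edgeR adjusted p of 0.21.

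Among the receptors, Notch3 was lower in the Hes1-derived libraries, while Notch1 and Notch2 did not pass the test. Notch3 (chr17:32120820-32166852, minus strand) stood at 63.3 and 49.0 CPM in the Hes1-derived and at 177 and 116 CPM in the Fgfr3-derived libraries. The lower Fgfr3-derived library was still well above both Hes1-derived ones. The difference was 2.60-fold, a log2 fold change of -1.38 ± 0.27 (95% interval -2.02 to -0.74; edgeR adjusted p = 0.026).

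Notch1 (chr2:26457903-26516663, minus strand) stood at 43.0 and 40.7 CPM in the Hes1-derived and at 33.2 and 32.5 CPM in the Fgfr3-derived libraries. Replicates were close and the groups did not overlap, yet the log2 fold change of 0.35 ± 0.21 (-0.15 to 0.85) had an edgeR adjusted p of 0.32. Notch2 (chr3:98013527-98150361, plus strand) stood at 25.9 and 14.6 CPM against 22.2 and 17.7 CPM, and its groups overlapped. Its interval, -0.77 to 0.81 around a log2 fold change of 0.02 ± 0.34, leaves room for a change in either direction (edgeR adjusted p = 0.98).

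Since the receptors' RNAs differ in length, their levels were compared as CPM per kilobase of the principal transcript. Notch3 was the most abundant receptor in every library, at 7.90 and 6.12 CPM per kb in the Hes1-derived and 22.1 and 14.4 CPM per kb in the Fgfr3-derived libraries. Notch1 came next at 4.53 and 4.29 against 3.50 and 3.43 CPM per kb, and Notch2 lower at 2.46 and 1.39 against 2.11 and 1.69 CPM per kb. Notch4, known mainly from endothelium, stayed at or below 0.587 CPM per kb. Of the summed receptor level per kilobase, Notch3 took 51.0% and 50.9% in the Hes1-derived and 78.5% and 71.9% in the Fgfr3-derived libraries. The Notch1 share was 29.3% and 35.7% against 12.5% and 17.1%. The groups did not overlap in either share; with 2 libraries against 2 an exact two-sided permutation test cannot go below p = 0.333, which is what both gave.

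The ratio of Notch3 to Notch1 reads does not depend on how libraries are scaled. It was 1.47 and 1.20 in the Hes1-derived libraries and 5.33 and 3.55 in the Fgfr3-derived libraries, a 3.27-fold difference between the groups' geometric means. Against Notch2 the Notch3 ratio was 2.45 and 3.35 in the Hes1-derived and 7.97 and 6.52 in the Fgfr3-derived libraries. Both ratios were thus separated by group, while that of Notch2 to Notch1 overlapped. Both exact two-sided permutation tests of the Notch3 ratios gave p = 0.333, the smallest that 2 libraries against 2 allow.

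**Figure D2:**
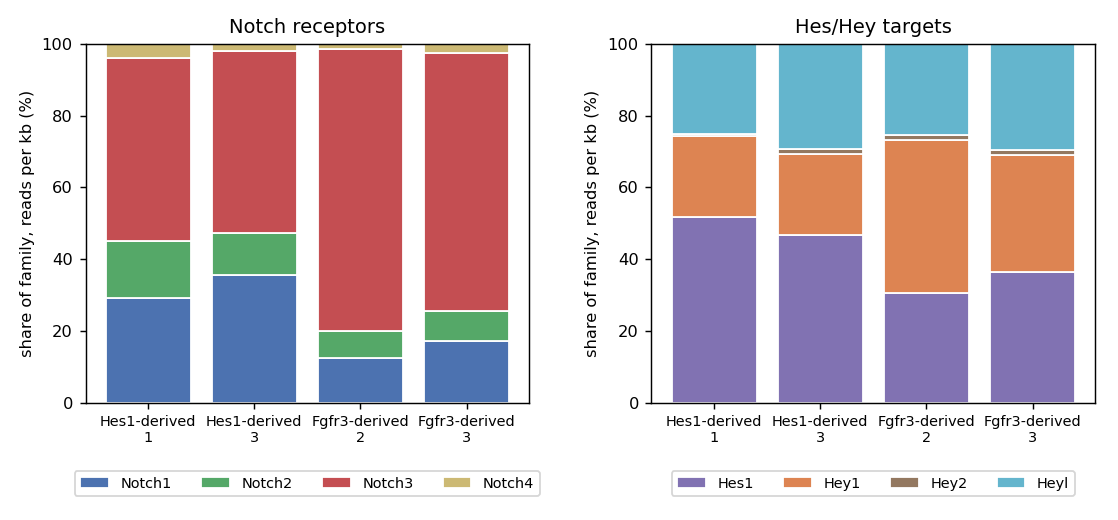
Stacked bars give shares (%) of summed reads per kb for each library, among the receptor genes (left) and among Hes1, Hey1, Hey2 and Heyl (right). Hes5 and Hes6 are not included. The Notch3 share is larger in the Fgfr3-derived bars (78.5% and 71.9%) than in the Hes1-derived bars (51.0% and 50.9%). Among the genes shown on the right, the Hes1 share is smaller there (30.5% and 36.3% against 51.7% and 46.8%).

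Rbpj (chr5:53466152-53657362, plus strand), the DNA-binding partner that all Notch receptors share, stood at 59.9 and 82.3 CPM in the Hes1-derived and at 106 and 74.1 CPM in the Fgfr3-derived libraries. The groups overlapped. The log2 fold change was -0.34 ± 0.27 (95% interval -0.97 to 0.28; edgeR adjusted p = 0.44).

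With TMM scaling Hey2, Hey1 and Heyl had the largest fold differences of the genes followed here, while the targets Hes1 and Nrarp were not called. Hey1 (chr3:8663359-8667256, minus strand) stood at 50.2 and 33.3 CPM in the Hes1-derived and at 232 and 168 CPM in the Fgfr3-derived libraries. Every Fgfr3-derived value was more than both Hes1-derived values added together. The difference was 4.79-fold, a log2 fold change of -2.26 ± 0.29 (-2.93 to -1.59; edgeR adjusted p = 0.015).

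Heyl (chr4:123233556-123249875, plus strand) stood at 104 and 81.3 CPM against 258 and 283 CPM. The replicates of each group were close compared with the gap between the groups. The difference was 2.91-fold, a log2 fold change of -1.54 ± 0.22 (-2.07 to -1.02; edgeR adjusted p = 0.016).

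Hey2 (chr10:30832359-30842801, minus strand), the least abundant of the Hey genes, stood at 0.880 and 1.97 CPM against 8.95 and 8.22 CPM. These rest on 20 and 49 reads in the Hes1-derived libraries (95% Poisson intervals 12.2 to 30.9 and 36.3 to 64.8, for counting error only) and on 227 and 215 reads in the Fgfr3-derived libraries. The counting intervals of the groups lay far apart, although the Hes1-derived libraries also differed from each other by more than counting error. The difference was 5.98-fold, a log2 fold change of -2.58 ± 0.51 (-3.78 to -1.38; edgeR adjusted p = 0.026).

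Hes1 (chr16:30064384-30067796, plus strand), the gene that carries the CreER in 1 group, stood at 69.2 and 41.9 CPM in the Hes1-derived and at 101 and 113 CPM in the Fgfr3-derived libraries. Both Hes1-derived libraries were lower, and replicate 3 was lower than replicate 1. The log2 fold change of -0.94 ± 0.28 (-1.59 to -0.29) missed the threshold with an edgeR adjusted p of 0.068. With DESeq2, which called 10.9% of all genes lower and 9.97% higher, Hes1 was called as the fifth gene of the 10 (-0.92, adjusted p = 0.020), and again none of the 10 was called higher.

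Nrarp (chr2:25180758-25183339, plus strand, 1 exon) was the target whose level lay the other way. It stood at 10.03 and 8.87 CPM in the Hes1-derived and at 4.18 and 6.46 CPM in the Fgfr3-derived libraries, from 228 and 220 against 106 and 169 reads. The groups did not overlap. The log2 fold change of 0.83 ± 0.38 (-0.07 to 1.72) had an edgeR adjusted p of 0.20. Nrarp reads per Hey1 read were 0.200 and 0.266 in the Hes1-derived and 0.0180 and 0.0385 in the Fgfr3-derived libraries. Of the 11 read ratios computed, this one differed most between the groups, 8.75-fold between geometric means (exact two-sided permutation p = 0.333). It pairs a target that lay higher with one called lower, so a large difference follows from the choice of genes.

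Per kilobase, Hes1 was the most abundant of the 10 genes in both Hes1-derived libraries, at 47.2 and 28.5 CPM per kb, followed by Heyl at 23.0 and 17.9 CPM per kb. Hey1 stood at 20.7 and 13.8 CPM per kb there, below Heyl in each library although the ranges overlap. In the Fgfr3-derived libraries Hey1 was at 95.8 and 69.2 CPM per kb, Hes1 at 68.7 and 76.8 CPM per kb and Heyl at 56.8 and 62.3 CPM per kb. There Hes1 and Hey1 could not be ordered, since each led in 1 library. Notch3 and Rbpj followed at 22.1 and 14.4 and at 19.5 and 13.6 CPM per kb, with Notch3 ahead in each library although the ranges overlap. At the low end, Hey2 was the least abundant of the 10 in both Hes1-derived libraries (0.345 and 0.774 CPM per kb) but stood level with Notch1 in the Fgfr3-derived libraries (3.51 and 3.22 CPM per kb).

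Shares were also taken within the summed level per kilobase of Hes1, Hey1, Hey2 and Heyl alone. The share of Hey1 was 22.7% and 22.6% in the Hes1-derived and 42.6% and 32.7% in the Fgfr3-derived libraries. That of Hes1 was 51.7% and 46.8% against 30.5% and 36.3%. The Heyl share of this sum was 25.2% and 29.4% against 25.3% and 29.4%, nearly the same in both groups. Hes5 and Hes6 were left out of the sum. Hes6 stood at 93.5 and 85.5 against 34.4 and 64.4 CPM per kb, above Hes1 in both Hes1-derived libraries. These shares therefore hold for the named genes only and would differ in a wider family. Hey1 reads per Hes1 read were 0.725 and 0.796 against 2.30 and 1.49, and Heyl reads per Hes1 read 1.51 and 1.94 against 2.56 and 2.51. The groups did not overlap in either ratio (exact two-sided permutation p = 0.333 for each). These ratios do not depend on scaling but take in whatever the CreER allele does to Hes1 RNA.

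The calls of the 10 genes depended on how the libraries were scaled. Scaling to the summed reads of 19 CAR stroma genes raised the median of all genes by 0.55 (log2), and scaling to reads of the eGFP transgene raised it by 0.86. Called lower and higher over all genes were 940 and 751 with TMM, 152 and 973 with the stroma scaling and 19 and 324 with the eGFP scaling. With the stroma scaling Hey1 alone of the 10 was called lower (1.06% of all genes lower, 6.79% higher), and with the eGFP scaling none was (0.133% lower, 2.26% higher). None was called higher under either. The log2 fold changes of Hey1 were -1.72 and -1.48, of Hey2 -1.94 and -1.57, of Heyl -1.05 and -0.77 and of Notch3 -0.81 and -0.55 under the stroma and eGFP scalings. All 4 thus stayed below 0, while the medians of all genes were 0.53 and 0.83.

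The counts were also set directly against eGFP reads, which report the Cxcl12 allele that both groups carry. Hey1 stood at 7.52 and 10.4 reads per 1000 eGFP reads in the Hes1-derived and at 25.04 and 24.8 in the Fgfr3-derived libraries. Notch3 stood at 9.50 and 15.3 against 19.1 and 17.1, and Heyl at 15.6 and 25.4 against 27.8 and 41.9 reads per 1000 eGFP reads. On this measure both Hes1-derived libraries were lower for 4 of the 10, Hey1, Hey2, Heyl and Notch3, as for 8% of all tested genes, and the groups of Heyl and Notch3 came close. Hes1 stood at 10.4 and 13.1 against 10.9 and 16.7 reads per 1000 eGFP reads, so its groups overlapped. Notch1, Notch2 and Nrarp, 3 of the 10, were higher in both Hes1-derived libraries per eGFP read, as were 46% of all tested genes, and Jag1 and Rbpj overlapped.

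**Figure D3:**
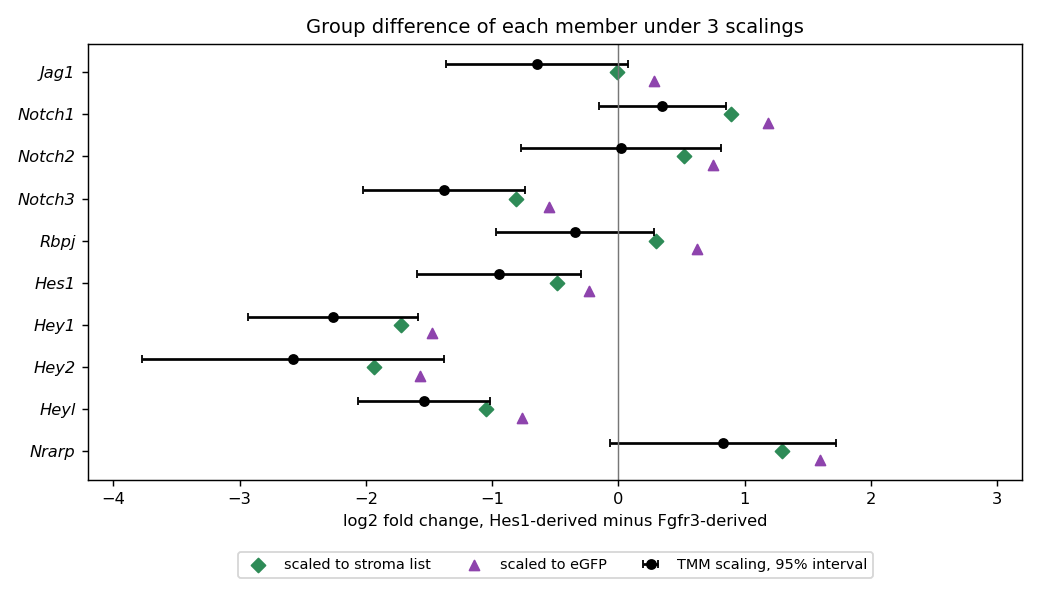
Log2 fold change (Hes1-derived minus Fgfr3-derived) of the 10 genes with TMM scaling (black, bars are 95% intervals, 2 libraries per group), with scaling to the stroma list (green) and to eGFP (purple). Both other scalings move every gene to the right, and Hey1, Hey2, Heyl, Notch3 and Hes1 stay left of 0 under all 3, whereas Jag1 and Rbpj lie on the right with eGFP.

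Single libraries also mattered. Without Hes1-derived replicate 1 the genes called lower were 5, Hes1 included (-1.35, edgeR adjusted p = 0.032), where 6.72% of all genes were called lower. Without Hes1-derived replicate 3 they were 3, Notch3 being lost (-1.21, adjusted p = 0.092), where the background was 1.89%. Without Fgfr3-derived replicate 2 only Hey1 and Heyl remained (background 1.1%), with log2 fold changes of -2.49 for Hey2 (edgeR adjusted p = 0.094) and -1.02 for Notch3 (adjusted p = 0.082). Without Fgfr3-derived replicate 3 the same 4 genes were called (background 6.21%). In these fits the lone library of a group is assumed to vary like those of the other group.

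Of 73 further genes of the pathway listed by role, 71 had a row and 67 were tested. Of these, 7 were lower in the Hes1-derived libraries, 10.4% against 6.56% of all genes, and 4 were higher, 5.97% against 5.24%. Their median log2 fold change was -0.16. Of these 11 calls, those of Dtx1, Neurl3 and Mfap5 also held with the stroma scaling and those of Dtx1 and Mfap5 with the eGFP scaling. None of the 7 lower ones held under either. Both scalings raised the median of all genes, which favours higher calls over lower ones. With the stroma scaling 6.79% of all genes were called higher and 1.06% lower, and with the eGFP scaling 2.26% and 0.133%. Ligands and proteases gave no call with TMM scaling. Of 6 tested ligand genes, Dll1 and Jag2 had the most CPM averaged over the 4 libraries, with 6.77 and 1.93 against 5.13 and 3.10 CPM for Dll1 and 3.56 and 4.43 against 2.41 and 1.19 CPM for Jag2. In both Fgfr3-derived libraries Dlk1, a related non-canonical ligand gene, was above Jag2, at 1.58 and 0.524 against 2.64 and 4.93 CPM (edgeR adjusted p = 0.13). Among the 9 genes of proteases that cut the receptors, the gamma-secretase subunit gene Ncstn had the most CPM and was not called, at 273 and 222 against 343 and 321 CPM.

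Of the 7 genes of enzymes that put sugars on the receptors, 2 fell. Kdelc1 and Kdelc2, related glucosyltransferases of EGF repeats, stood at 44.5 and 32.4 against 95.8 and 76.5 CPM and at 38.6 and 30.1 against 109 and 65.0 CPM (log2 fold changes -1.16 and -1.35, edgeR adjusted p = 0.030 and 0.033). The fringe gene Rfng, which had the most CPM of the 7 averaged over the 4 libraries, was not called (65.5 and 46.0 against 87.6 and 88.7 CPM).

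Of the 14 genes of endocytosis and ubiquitin transfer, 2 rose. Dtx1, a ubiquitin ligase gene that B cells also use, stood at 15.6 and 14.9 against 1.30 and 2.41 CPM (log2 fold change 3.03 ± 0.43, edgeR adjusted p = 0.016). Neurl3 stood at 39.1 and 45.8 against 11.7 and 17.1 CPM (1.56 ± 0.28, adjusted p = 0.022). The ubiquitin ligase genes Itch and Dtx3, with the most CPM of this list, were not called, at 84.6 and 76.7 against 98.1 and 73.6 CPM and at 68.5 and 56.7 against 97.5 and 100.2 CPM.

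Of 19 tested nuclear cofactor genes, the Groucho-type corepressor gene Tle2 was lower and its relative Tle4 higher with TMM scaling. Tle2 stood at 216 and 136 against 390 and 393 CPM (-1.16 ± 0.27, edgeR adjusted p = 0.038), and Tle4 at 53.5 and 64.4 against 32.5 and 33.4 CPM (0.84 ± 0.22, adjusted p = 0.049). Ctbp1, also a corepressor gene and the one with the most CPM, was not called, at 567 and 503 against 428 and 550 CPM.

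The remaining repressors of the helix-loop-helix type did not follow the Hey genes as a group. Of 4 tested, Bhlhe40, a relative that is not a classical Notch target, was lower at 58.1 and 99.0 against 210 and 179 CPM (-1.31 ± 0.29, edgeR adjusted p = 0.032). Hes6 stood at 125 and 114 against 45.9 and 85.9 CPM (adjusted p = 0.11), and Hes5 at 3.34 and 3.47 against 0.434 and 1.19 CPM (adjusted p = 0.084). Both were higher in each Hes1-derived library but missed the threshold. DESeq2 called both (adjusted p = 0.035 for Hes5 and 0.043 for Hes6), as did edgeR without Fgfr3-derived replicate 3 (adjusted p = 0.049 and 0.019), and with the stroma scaling edgeR called Hes5 (adjusted p = 0.035).

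Matrix and adaptor genes that touch the pathway gave 3 lower and 1 higher of 7. Mfap2 and Postn, which encode matrix proteins, stood at 118 and 66.6 against 270 and 283 CPM and at 141 and 102 against 328 and 299 CPM (-1.58 and -1.36, edgeR adjusted p = 0.024 and 0.021). Epn2, an endocytic adaptor gene, stood at 23.4 and 15.7 against 59.1 and 41.1 CPM (-1.36, adjusted p = 0.033). Mfap5, another matrix gene, was higher (edgeR adjusted p = 0.024) but rests on 84 reads in the Hes1-derived and 3 in the Fgfr3-derived libraries, a ratio of TMM-scaled counts of 30.3 with a 95% counting interval of 10.03 to 150.

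**Figure D4:**
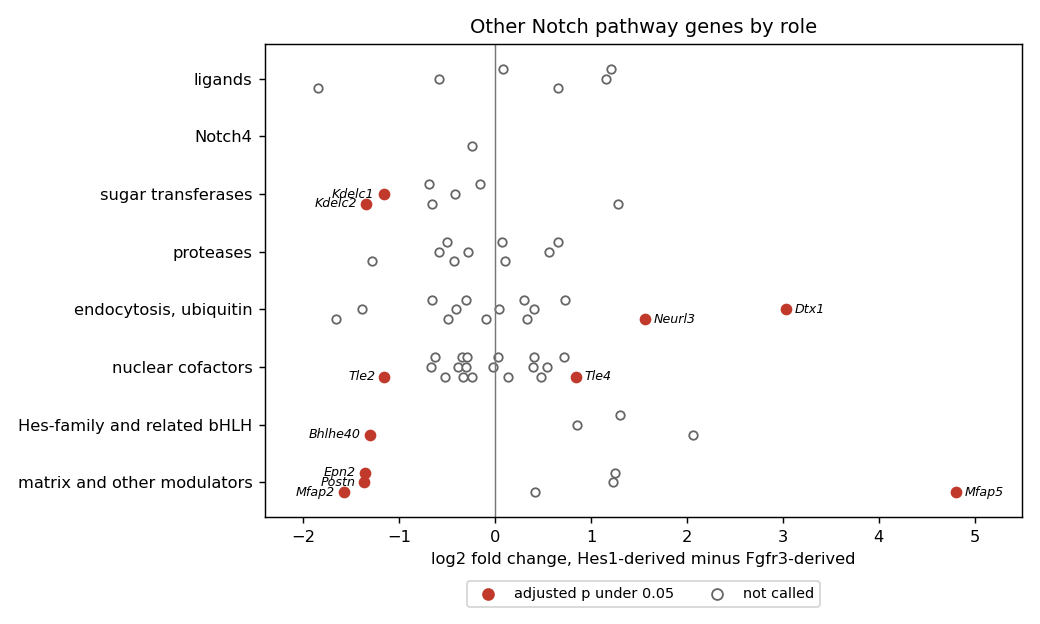
Log2 fold change (Hes1-derived minus Fgfr3-derived, TMM scaling) of the 67 other tested pathway genes, 1 point per gene, in rows by role. Filled red points are the 11 genes with an edgeR adjusted p under 0.05, 7 on the left and 4 on the right, and open points did not pass.

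Markers of other cells differed between the groups beside these results, and their part in them was not tested. The mural list, which does not hold Notch3 or Heyl, summed to 113 and 85.5 CPM in the Hes1-derived and 333 and 269 CPM in the Fgfr3-derived libraries. By log2 fold change 7 of its 10 tested genes lay below 0 and the rest above, with 6 called lower and none called higher. Its gene with the most CPM averaged over the 4 libraries was Abcc9, at 37.0 and 28.9 against 179 and 121 CPM. This 1 gene made up a large part of the sums in the Fgfr3-derived libraries. Acta2 came next, at 14.9 and 14.0 against 44.3 and 39.2 CPM. Of the genes that define smooth muscle, Myocd was at 0 in 2 libraries and had 1 read in each of the others, and Lmod1 was at 0 in 1.

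The osteoblast list ran the same way, at 4850 and 4856 against 27547 and 31131 CPM, with 9 of 14 lower, led by Mmp13 and Spp1. The chondrocyte list, led by Col2a1 and Sox9, crossed the groups at 646 and 2281 against 3761 and 549.9 CPM, with 0 of 10 called. The CAR stroma list, led by Cxcl12 at 7057 and 4180 against 9764 and 7028 CPM and by Lpl, summed to 19004 and 12920 against 27964 and 18573 CPM, with 2 of 20 lower. Hey1, Hey2, Heyl and Notch3 were lower in both Hes1-derived libraries, as were the mural and osteoblast sums. Hes1 and Jag1 lay the same way, as did 32.1% of all tested genes, so the likeness is not particular to these genes.

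Blood and vessel lists ran the other way. B lymphocyte genes, led by Cd79a and Cd79b, summed to 3182 and 3097 against 755 and 899.9 CPM (13 of 14 higher), and erythroid genes, led by Alas2 and Slc4a1, to 8023 and 4477 against 1216 and 1801 CPM (8 of 9 higher). Pan-leukocyte genes, led by Arhgdib and Coro1a, stood at 5353 and 6452 against 1572 and 3302 CPM (9 of 12 higher). The neutrophil list, led by Ngp and Ltf, summed to 27341 and 32319 against 11585 and 24198 CPM, with 1 of 11 lower and 1 higher. T lymphocyte genes, led by Lck and Cd3d, summed to 63.8 and 68.8 against 23.6 and 34.5 CPM (1 of 8 higher), and Cd3e and Cd3g were at 0 in 1 library each and Trat1 in 3. The endothelial list summed to 236 and 223 against 165 and 164 CPM, with Pecam1 the one called gene of 15 (59.0 and 69.6 against 15.9 and 20.8 CPM) and Eng, the one with the most CPM, lying the other way. Dtx1, Neurl3, Nrarp and Notch1 had their higher values in the same libraries as these lists, as did 29.8% of all tested genes.

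The transgene rows differed too. eGFP stood at 6669 and 3204 against 9264 and 6754 CPM, and tdTomato-WPRE at 229 and 113 against 382 and 510.4 CPM. The row iCre-ERT2 stood at 24.4 and 16.3 against 95.4 and 74.7 CPM. Reads of both drivers' Cre may fall on that row, which the sources used here do not settle.

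**Figure D5:**
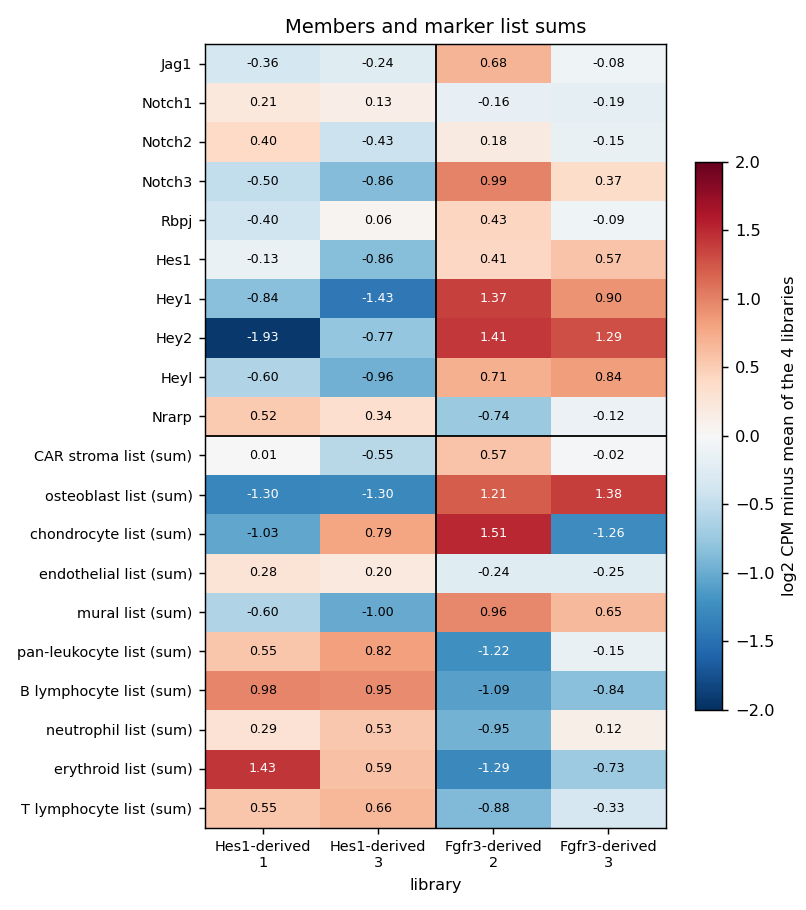
Log2 CPM minus the mean of the 4 libraries, for the 10 genes (upper rows) and for the summed CPM of each marker list (lower rows), with the value printed in each cell (red above, blue below the mean). Hey1, Hey2, Heyl, Notch3, Hes1 and the osteoblast and mural sums are blue in both Hes1-derived libraries and red in both Fgfr3-derived ones. The B lymphocyte and erythroid sums show the opposite pattern.

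For each of Hes1, Hey1, Hey2, Heyl and Notch3, the genes with the most similar profile were sought by the root mean square difference of centred log2 CPM over the 4 libraries, among 11073 genes. Nearest to Hey1 were C6 (0.058), Fbn2 (0.073) and the mural marker Abcc9 (0.10). Nearest to Notch3 were Tspan12 (0.015), Rbpms2 (0.031) and Igf2bp2 (0.039), and nearest to Heyl were Larp6 (0.043), Pkdcc (0.044) and Pmepa1 (0.050). Hey2 lay nearest to Stbd1 (0.075), Mlf1 (0.099) and Chsy3 (0.11), and Hes1 to 2310022B05Rik (0.020), Pik3r2 (0.031) and Pomt2 (0.034). With 4 libraries, many genes come close to any profile, and the likeness is given as a description.

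Some reads of these genes may belong to other genes. The strand setting of the counting is not given in the sources used here, and in GENCODE M21 exons on the opposite strand overlap Nrarp over 2051 bases (Gm38287), Notch1 over 1068 bases (0610009E02Rik) and 414 bases (Gm13568) and Notch3 over 488 bases (Gm17276). On the same strand Gm42820 overlaps Notch2 over 541 bases. The processed pseudogene Rbpj-ps3 matches Rbpj over 1441 bases at 99.7% identity, and Gm30232 matches Notch3 over 466 bases at 92.9%. None of these has a row in the count table. That table lists no gene with 0 reads in all libraries, so a missing row does not show where such reads went. The counts of Nrarp and Rbpj in particular are uncertain to that extent.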

How the data were processed

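Bulk RNA was measured in 4 libraries, 2 Hes1-derived and 2 Fgfr3-derived, grouped by the genotype and cell type labels. Per the submitters' processing notes the build was mm10 and the tools were TopHat2 2.0.13, Bowtie2 2.2.1, HTSeq, DESeq2, Cuffdiff, Cufflinks and FastQC. The tools' roles and order, the annotation and the strand setting are not given in the sources used here. The extraction text also names a single-cell loading, but each library is 1 column of counts and was treated as bulk.

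The deposited counts are whole reads per gene symbol. The deposited signal values are those counts divided by 1 size factor per library, as was checked on the values. A further deposited table gives regularized log2 values, per the file headers and names, and was not used for tests.

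The counts were tested with edgeR 4.0.16 (R 4.3.3; filterByExpr with minimum count 10, TMM, robust dispersions, quasi-likelihood F test), which kept genes holding at least 99.96% of each library's reads. The biological coefficient of variation was 27.8%, with 2 residual degrees of freedom, and the threshold was an adjusted p of 0.05. The SE of a log2 fold change is its absolute value over the root of F. Fold differences come from the same fit. Alternative scalings used library totals, RLE, upper quartiles, the CAR stroma list without Ebf1 or eGFP. Other alternatives were DESeq2 1.42.0, limma-voom and limma-trend on the deposited signal plus 0.5 (limma 3.58.1), no filter, at least 1 CPM in 2 libraries, and leaving out each library with the gene set kept.

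Transcript lengths and positions are from GENCODE M21 (GRCm38), promoters from RefSeq, and near copies were sought with blastn 2.17.0+ (at least 90% identity over at least 200.0 bases). The text names all 10 genes, every other pathway gene past the threshold, the 2 with the most CPM (mean of the 4 libraries) in each pathway sublist and marker list, the transgenes, and the 3 nearest profiles (mean of at least 5 CPM, pseudocount 0.5). Hes5 and Dlk1 were added after their values were seen. A gene that this rule names is not reported here. The genes, lists and alternatives were chosen with earlier results of these data known. Hes2 and Helt, of the pathway list, were not analysed here.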

Additional observations from a re-analysis of the deposited data

How the results depend on the processing

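No paired analysis was possible because the groups share a single replicate number, 3. Over 14 alternatives for each of the 10 genes, 121 values kept direction and side of the threshold, 10 lost the call, 2 gained it and 7 changed sign. The gains were those of Hes1 given above, and the losses were of Hey1, Hey2, Heyl and Notch3, under the stroma or eGFP scaling or without 1 library. The number of the 10 called lower, 4, was 1 with the stroma scaling, 0 with eGFP and 2 to 5 when a library was left out; the number called higher was 0 throughout (0 to 0 when a library was left out). Of the other pathway genes, the 7 lower became 0 with the stroma scaling, 0 with eGFP and 1 to 7 with a library left out. The 4 higher became 2 with eGFP, 8 with DESeq2 and 1 to 6 with a library left out. The median log2 fold change of the 10 genes turned to 0.025 with eGFP. That of the other pathway genes turned to 0.33 with the stroma scaling and 0.62 with eGFP. The SE grew as well, for Hey1 from 0.29 with TMM to 0.57 with the stroma scaling and 0.76 with eGFP. For Heyl it grew from 0.22 to 0.56 and 0.75, so the lost calls went with a larger SE as well as a shift. The median of all genes rose too, by 0.55 and 0.86, though single genes moved by unequal amounts. Less the median of all genes, the 10 stood at -0.77 with TMM, -0.77 with the stroma scaling and -0.81 with eGFP, and the other pathway genes at -0.14, -0.19 and -0.21. Signs changed for Notch2 with limma-voom (-0.037), with limma-trend (-0.0041) and with a library left out (-0.45 to 0.37; below 0 without Hes1-derived replicate 1 or Fgfr3-derived replicate 3), for Jag1 with eGFP (0.28), and for Rbpj with the stroma scaling (0.30) and eGFP (0.63). The adjusted p ranged over the alternatives from 4.8e-11 to 0.29 for Hey1, 1.0e-04 to 0.32 for Hey2, 2.8e-07 to 0.54 for Heyl, 1.4e-04 to 0.65 for Notch3 and 0.020 to 0.84 for Hes1. Both scalings rest on genes whose own level may differ between the groups, and the cause of the moves beyond the scaling itself was not tested. Depth limits the values of Hey2, with 20 and 49 reads in the Hes1-derived libraries, of Hes5, with 11 and 31 reads in the Fgfr3-derived libraries, and of Mfap5, with 3 reads in that group.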
